A study of Mus musculus with 2 samples.

Results

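The microRNA genes Mir23b, Mir27b and Mir24-1 on mouse chromosome 13, and Mir23a, Mir27a and Mir24-2 on chromosome 8, form a pair of paralogous clusters. They were taken by symbol from the GENCODE M21 annotation, and all 6 were found among the 2202 microRNA genes of the count tables. MicroRNA-seq had been run on cortical tissue (left cerebral cortex) of 2 females of B6CASTF1/J, an F1 hybrid of the C57BL/6J and CAST/EiJ strains, aged 36 days. The labels name no treatment, genotype or second tissue, and they call the animals separate biological replicates, so the design holds 1 group with n = 2. Each mouse gave 1 library, and differences between the animals cannot be told apart from differences between the library preparations.

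Both clusters are known to be transcribed as single primary transcripts that carry their 3 hairpins in the order 23, 27 and 24. Each hairpin is cut out and processed into short mature strands, and bases 2 to 8 of a mature strand, its seed, do most of the pairing with target messenger RNAs. The family is known from endothelial cells and blood lineages, and also from glia. In mice miR-23a is known to promote myelination by repressing the nuclear lamina gene Lmnb1. miR-27 is known to restrain fat cell differentiation, and miR-24 is known in human cell lines to repress cell-cycle genes such as MYC.

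The chromosome 13 cluster spanned 792 bases (mm10, chromosome 13, 63300484 to 63301275, plus strand) inside the protein-coding gene 2010111I01Rik (Aopep in RefSeq, an aminopeptidase gene). Mir23b (ENSMUSG00000065599.2, 63300484 to 63300557) lay in an intron. Mir27b (ENSMUSG00000065475.2, 63300712 to 63300784) and Mir24-1 (ENSMUSG00000105904.1, 63301208 to 63301275) overlapped annotated exons of that gene. The DNA repair gene Fancc covers the same stretch on the minus strand. The chromosome 8 cluster was more compact, spanning 404 bases (chromosome 8, 84208518 to 84208921, plus strand), and Mir23a (ENSMUSG00000065611.1, 84208518 to 84208592) and Mir27a (ENSMUSG00000065444.1, 84208672 to 84208758) lay in no other annotated gene. Mir24-2 (ENSMUSG00000065541.1, 84208815 to 84208921) met the first bases of the lincRNA gene Gm26532. Each Mir24 hairpin lay over a microRNA gene of the opposite strand, Mir3074-1 on chromosome 13 and Mir3074-2 on chromosome 8.

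**Figure D1:**
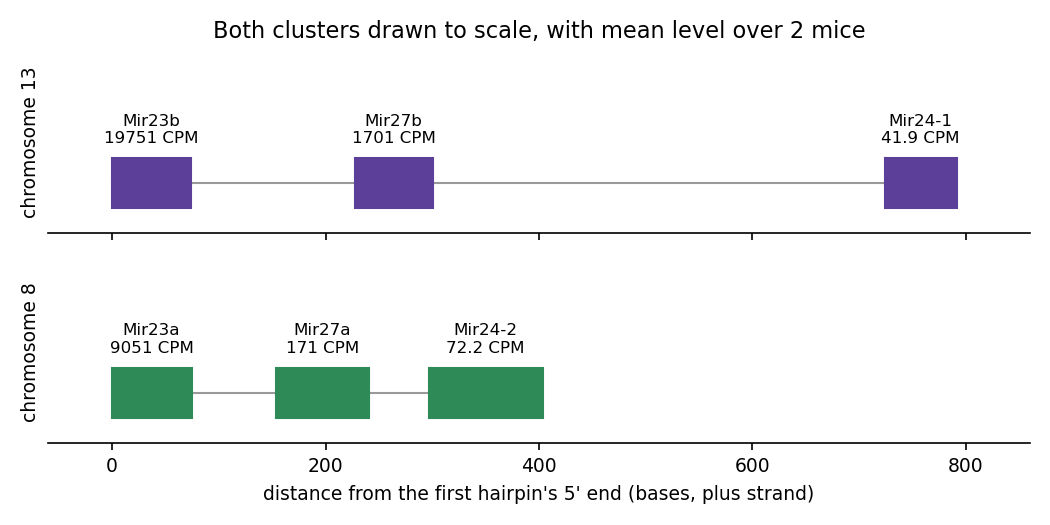
The hairpins of the chromosome 13 cluster (upper row) and of the chromosome 8 cluster (lower row) are drawn to scale as boxes against distance in bases from the 5′ end of the first hairpin. The mean level over 2 mice in CPM (sense counts scaled to the library's sense total) stands above each box, from 19751 CPM for Mir23b to 41.9 CPM for Mir24-1.

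The mature strands are shown because their likeness decides which reads can be given to which gene. They are RefSeq sequences (GRCm38.p6), written 5′ to 3′ with the seed in capitals. The sequences used held no entry for miR-23b-3p, so that strand is not printed. The 3p strands of the Mir27 genes and the 3p strand that Mir24-1 and Mir24-2 share are the following, with that of Mir23a.
mmu-miR-23a-3p: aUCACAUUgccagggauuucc
mmu-miR-27b-3p: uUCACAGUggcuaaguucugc
mmu-miR-27a-3p: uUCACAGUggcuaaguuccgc
mmu-miR-24-3p: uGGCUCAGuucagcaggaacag
The mature strands miR-27a-3p and miR-27b-3p have the same seed and differ by the single substitution C19U, counted from the 5′ end of miR-27a-3p. The first 18 bases of miR-23a-3p also occur in the Mir23b hairpin, where they are the capitals of the hairpin below, the source of miR-23b-3p.
Mir23b hairpin: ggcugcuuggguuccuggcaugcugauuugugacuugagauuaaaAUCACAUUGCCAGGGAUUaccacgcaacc
A read of a Mir27 3p strand, or of these Mir23 bases, that starts at base 1 and ends before base 19 therefore carries no base that separates the copies. miR-24-3p is the same from both loci over all 22 bases, so that a read of it fits both Mir24-1 and Mir24-2 however long it is. The 5p strands differ more, as follows.
mmu-miR-23b-5p: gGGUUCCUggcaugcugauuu
mmu-miR-23a-5p: gGGGUUCCuggggaugggauuu
mmu-miR-27b-5p: aGAGCUUAgcugauuggugaac
mmu-miR-27a-5p: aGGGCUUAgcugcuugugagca
mmu-miR-24-1-5p: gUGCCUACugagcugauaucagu
mmu-miR-24-2-5p: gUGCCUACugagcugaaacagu
The 5p strands of the Mir27 genes part at base 3 and those of the Mir24 genes at base 17. Strands were searched for only among the hairpins of the M21 annotation, not in the genome. Reads that mapped to several places were given to no gene, and they made up 50.9% of mapped reads in mouse 1 and 51.2% in mouse 2. How many of them came from these 6 genes is not known, and the counts do not tell the 5p from the 3p strand.

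Mouse 1 gave 1930234 sense-strand counts and mouse 2 gave 1863876, and levels in CPM are sense counts scaled to these totals. A level in bulk tissue cannot tell fewer cells of a type from less RNA per cell. All printed mature strands are 21 to 23 bases long, so the levels of different genes were compared without a length correction. The neuron markers of the cortex were present, with 15 of 19 listed genes at 10 CPM or more in both mice and a summed level of 198519 CPM (mouse 1) and 199513 CPM (mouse 2). Single genes of that list differed in opposite directions, so the near-equal sums do not mean equal levels. Mir139 stood at 132003 CPM (mouse 1) and 92535 CPM (mouse 2), and Mir132 at 29894 CPM (mouse 1) and 64859 CPM (mouse 2). The 3 Mir124a copies had 4 counts or fewer in each mouse, and since reads that fit several copies were given to no gene, such low counts do not show that a microRNA was absent.

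In reads given to a single gene, Mir23 had the most counts in both clusters, Mir27 stood well below it, and Mir24 had few. The Mir24 counts leave out reads of the shared miR-24-3p, so this order does not rank the mature strands. Together the 6 genes held 3.08% ± 0.739 of sense counts (SD, n = 2), with 3.602% in mouse 1 (95% Clopper-Pearson interval 3.58% to 3.63%, counting error only) and 2.56% in mouse 2 (2.53% to 2.58%). The chromosome 13 cluster held 2.15% ± 0.479 and the chromosome 8 cluster 0.929% ± 0.260. Of the counts given to the 6 genes, which leave out their reads at several places, the Mir23 pair took 96.3% in mouse 1 and 89.6% in mouse 2, the Mir27 pair 3.35% and 9.94%, and the Mir24 pair 0.319% and 0.443%.

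Mir23b had 45834 counts in mouse 1 and 29369 in mouse 2, which is 23745 and 15757 CPM and a mean of 19751 ± 5649 CPM. It ranked 11 of 2202 genes by mean level. Mir23a had 21139 counts in mouse 1 and 13326 in mouse 2, which is 10952 and 7150 CPM and a mean of 9051 ± 2688 CPM, at rank 23. Both Mir23 genes were higher in mouse 1, and the lower Mir23b value still exceeded the higher Mir23a value.

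Mir27b had 2115 counts in mouse 1 and 4300 in mouse 2, which is 1096 and 2307 CPM and a mean of 1701 ± 857 CPM, at rank 79. Mir27a had 211 counts in mouse 1 and 435 in mouse 2, which is 109 and 233 CPM and a mean of 171 ± 87.7 CPM, at rank 185. Both Mir27 genes were higher in mouse 2, the opposite of the Mir23 genes that lie beside them.

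Mir24-1 had 84 counts in mouse 1 and 75 in mouse 2, which is 43.5 and 40.2 CPM and a mean of 41.9 ± 2.32 CPM, at rank 249. Mir24-2 had 138 counts in mouse 1 and 136 in mouse 2, which is 71.5 and 72.97 CPM and a mean of 72.2 ± 1.04 CPM, at rank 223. The Mir24 genes differed little between the mice, and they are the members whose 3p strand cannot be given to a gene. Their counts hold only reads that fit a single place, and are no measure of miR-24-3p.

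By mean level the order was Mir23b, Mir23a, Mir27b, Mir27a, Mir24-2 and Mir24-1, with the same order in each mouse. The ranges over the 2 mice did not overlap between any neighbours in that order. The closest neighbours were Mir24-2 and Mir24-1, at 1.72 times, and the farthest were Mir27b and Mir27a, at 9.93 times.

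**Figure D2:**
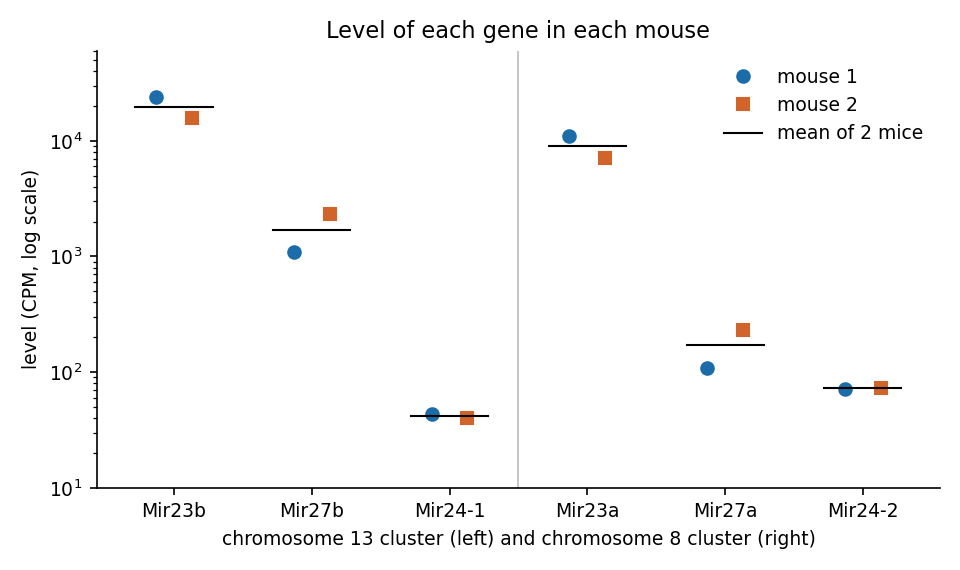
Level of each gene in CPM on a log scale, with mouse 1 as circles, mouse 2 as squares and the mean of 2 mice as a line. Mir23b and Mir23a are higher in mouse 1, Mir27b and Mir27a are higher in mouse 2, and the Mir24 genes nearly coincide.

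The next comparison asked how many counts each copy of a gene had relative to the other copy in the same library, which needs no scaling between libraries. Mir23b over Mir23a was 2.17-fold in mouse 1 (95% counting interval 2.13 to 2.20) and 2.20-fold in mouse 2 (2.16 to 2.25), a mean log2 ratio of 1.13 ± 0.0166. Mir27b over Mir27a was 10.02-fold in mouse 1 (8.70 to 11.6) and 9.89-fold in mouse 2 (8.95 to 10.9), a mean log2 ratio of 3.32 ± 0.0142. In reads given to a single gene, the chromosome 13 copy was thus the higher of both pairs in both mice, and the intervals of the mice overlapped. Reads that fit both copies are left out, and the intervals cover counting error only. These ratios are therefore of assigned reads and not of the RNA that each locus gives. For Mir24 the chromosome 8 copy had more of the few reads that fit a single place. These leave out miR-24-3p, and the hairpins are 68 bases (Mir24-1) and 107 bases (Mir24-2). Which Mir24 locus gives more RNA cannot be read from them. Mir24-1 over Mir24-2 was 0.609 in mouse 1 (0.458 to 0.804) and 0.551 in mouse 2 (0.410 to 0.736), a mean log2 ratio of -0.79 ± 0.101. With 2 mice an exact permutation of signs cannot give a p below 0.5, so no p is given.

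Over summed counts the chromosome 13 cluster was 2.24 times the chromosome 8 cluster in mouse 1 and 2.43 times in mouse 2. These sums are mostly Mir23. The excess of the chromosome 13 copy in assigned reads differed between the genes, since it was nearly 10-fold for Mir27 and about 2.19-fold for Mir23 as geometric means of the 2 mice.

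Between the mice, the Mir27 genes were at least 2-fold apart and the others were not. Log2 ratios are of mouse 1 over mouse 2 with TMM library sizes, over the 324 genes whose mean level reached 10 CPM. Of these, 63 (19.4%) were at least 2-fold apart, 17 of them higher in mouse 1 (5.25%) and 46 higher in mouse 2 (14.2%). Of the 6 members, 2 were at least 2-fold higher in mouse 2 and 0 in mouse 1, which is too few to read against that background. With 1 library a mouse there is no replicate of such a difference and no p is given.

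For Mir27b the log2 ratio was -1.03 (95% counting interval -1.10 to -0.95), 2.04-fold higher in mouse 2. For Mir27a it was -1.05 (-1.29 to -0.81), 2.06-fold higher in mouse 2. Both sit just past 2-fold, and 18.8% and 18.2% of tested genes lay at least as far from 0. After removal of a linear trend on the GC content of the hairpins, Mir27b stood at -0.85 and was no longer 2-fold apart, while Mir27a stood at -1.14. The Mir23 genes went the other way. Mir23b had 0.64 (0.62 to 0.66), 1.56-fold higher in mouse 1, and Mir23a had 0.66 (0.63 to 0.69), 1.58-fold higher in mouse 1.

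The Mir24 genes lay near 0, Mir24-1 at 0.16 (-0.31 to 0.63) and Mir24-2 at 0.02 (-0.33 to 0.37). At this depth no difference between the mice was detectable for either gene. Across the 6 members the median log2 ratio was 0.09, against 0.00 for all 324 genes. Their median distance from 0 was 0.65, against 0.53 for all.

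**Figure D3:**
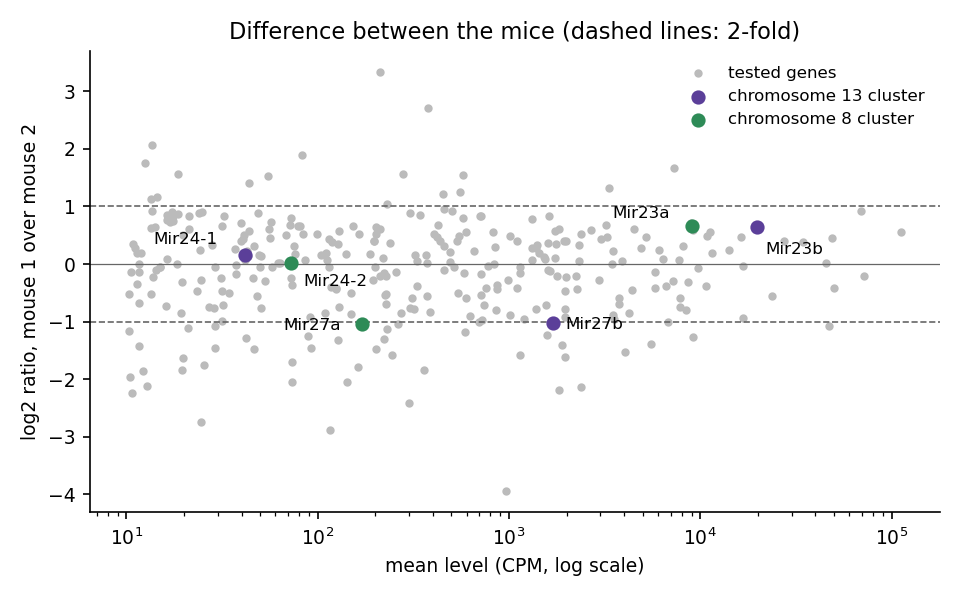
Log2 ratio of mouse 1 over mouse 2 against mean level in CPM on a log scale for 324 tested genes in grey, with the chromosome 13 cluster in purple and the chromosome 8 cluster in green. Mir23b and Mir23a lie together at 0.64 and 0.66, Mir27b and Mir27a together at -1.03 and -1.05 just past the dashed 2-fold line, and the Mir24 genes near 0.

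The Mir23 and Mir27 genes thus differed between the mice by gene name and not by cluster. Within the chromosome 13 cluster, Mir27b counts were 4.61% of Mir23b counts in mouse 1 and 14.6% in mouse 2, a 3.17-fold change of that ratio. Within the chromosome 8 cluster, Mir27a counts were 0.998% of Mir23a counts in mouse 1 and 3.26% in mouse 2, a 3.27-fold change. The ratios of neighbours in both clusters thus moved by nearly the same factor and in the same direction. The ratio between copies on different chromosomes moved by 1.02-fold for Mir23, 1.01-fold for Mir27 and 1.10-fold for Mir24. For Mir24 the counts are few and the intervals of that ratio wide, 0.458 to 0.804 in mouse 1 and 0.410 to 0.736 in mouse 2. Whether the Mir24 copies moved together cannot be read from them. The comparison of neighbours was chosen after the values were seen.

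Other pairs give a scale for this. Among the tested genes, 28 other pairs have symbols that differ only by the letters a and b or the endings -1 and -2. The log2 ratios of their 2 genes differed by a median of 0.76, with a range of 0.00 to 2.22. Some of these pairs hold genes near the limit of 10 CPM, such as Mir10a at 11.4 CPM, where counting error adds to the difference. Of the pairs, 2 also lay within 10 kb of each other on 1 strand. The Mir23 genes had far more counts, so this scale is a rough one. The member pairs differed by 0.02 for Mir27, 0.02 for Mir23 and 0.14 for Mir24, and 4 of the 28 other pairs differed by 0.14 or less. Those 4 were Mir130b with Mir130a, Mir16-1 with Mir16-2, Mir135a-1 with Mir135a-2 and Mir376b with Mir376a.

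Neighbouring genes showed the reverse. Of 93 other pairs of consecutive tested genes within 10 kb on 1 strand, the median difference of log2 ratios was 0.62 and the highest was 2.87. Mir27a and Mir23a differed by 1.71 and Mir27b and Mir23b by 1.67, and 5 of the 93 other pairs differed by as much as either. Those 5 were Mir29c with Mir29b-2, Mir539 with Mir487b, Mir3072 with Mir410, Mirlet7c-1 with Mir99a and Mir298 with Mir296. Mir24-1 and Mir27b differed by 1.19, and Mir24-2 and Mir27a by 1.06. These 2 pairs stand out less, since 19 of the 93 other pairs differed by 1 or more. The pairs share genes with each other and are not independent, so these counts are a description.

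Hairpin GC content differed between the clusters, from 47.9% to 51.5% on chromosome 13 and from 56.0% to 61.7% on chromosome 8. With the GC trend removed, the copies differed by 0.14 for Mir23, 0.29 for Mir27 and 0.38 for Mir24, and 7 of the 28 other pairs differed by 0.38 or less. The neighbours Mir27a and Mir23a then differed by 1.80, and Mir27b and Mir23b by 1.65.

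**Figure D4:**
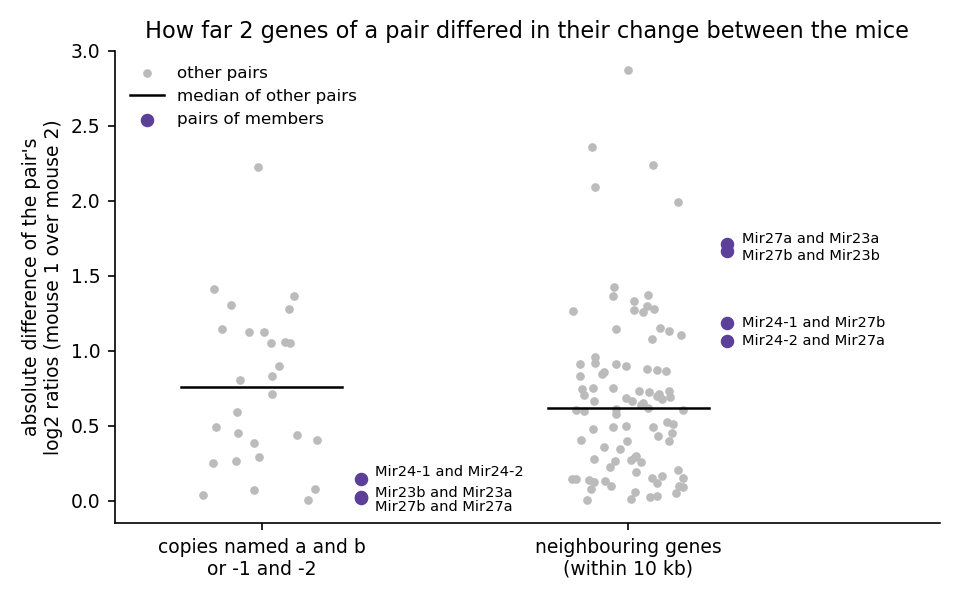
Absolute difference between the log2 ratios (mouse 1 over mouse 2) of the 2 genes of a pair, for copies named a and b or -1 and -2 (left) and for neighbouring genes within 10 kb (right). Pairs of members are purple, other pairs are grey and the line is the median of the other pairs, 0.76 for copies and 0.62 for neighbours. The copies of the members lie at 0.14 or below, and their neighbours lie between 1.06 and 1.71.

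The summed levels of vessel and blood genes also differed between the libraries. Over all 324 tested genes, 14.2% were at least 2-fold higher in mouse 2 and 5.25% in mouse 1. The marker lists that follow hold too few tested genes to be read against these shares. The 11 listed endothelial and mural genes summed to 15950 CPM (mouse 1) and 31961 CPM (mouse 2). Of the 6 tested, 2 were at least 2-fold higher in mouse 2 and 0 in mouse 1. Of all 11, 5 reached 10 CPM in both mice, and Mir126b, Mir199a-1 and Mir145b were at 0 counts in both. That sum was higher in mouse 2, and the median log2 ratio of the 6 tested genes was -0.90, with Mir214 at 0.02. The endothelial gene Mir126a made up most of the sum, at 11276 CPM (mouse 1) and 22380 CPM (mouse 2). The 3 erythroid genes, all at 10 CPM or more in both mice, summed to 742 CPM (mouse 1) and 153 CPM (mouse 2), and 2 of them were at least 2-fold higher in mouse 1. The 4 oligodendrocyte genes summed to 2756 CPM (mouse 1) and 5128 CPM (mouse 2), with Mir219b at 0 in both and 2 genes at 10 CPM or more, neither of them 2-fold apart. The 6 leukocyte and microglia genes summed to 2093 CPM (mouse 1) and 2417 CPM (mouse 2), with 4 genes at 10 CPM or more in both and Mir142b at 0. That sum was mostly Mir150, at 1531 CPM (mouse 1) and 1263 CPM (mouse 2). Of the 4 tested genes, Mir142 (log2 ratio -1.46) and Mir146 (-1.01) were at least 2-fold higher in mouse 2, and the median of the 4 was -0.53. Their part in the differences of the members was not tested.

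The seed of miR-27 also holds most of another brain microRNA's seed. miR-128-3p, made from Mir128-1 and Mir128-2 and abundant in neurons, is shown for that reason.
mmu-miR-128-3p: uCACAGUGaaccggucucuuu
Its seed is found at bases 3 to 9 of miR-27a-3p and miR-27b-3p, shifted by a single base from their own. Mir128-1 stood at 16282 CPM (mouse 1) and 17178 CPM (mouse 2), and Mir128-2 at 3717 CPM (mouse 1) and 3294 CPM (mouse 2). Their log2 ratios of mouse 1 over mouse 2 were -0.03 and 0.22. The 3p strand is found whole in both Mir128 hairpins, so these counts hold only reads that fit a single place and are no measure of miR-128-3p. Apart from the clusters, 4 genes share the seed of miR-24-3p (Mir6413, Mir6410, Mir6369 and Mir5124b). All 4 had 0 counts in both mice. Levels below the floor of 3 counts, which equals 1.55 CPM (mouse 1) or 1.61 CPM (mouse 2), could have been missed.

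The genes most like each member were found by distance in log2(CPM + 1) over the 2 libraries. Nearest to Mir23a were Mir324 (distance 0.0379, 8976 ± 2843 CPM) and Mir652 (distance 0.0531, 9131 ± 2435 CPM). Nearest to Mir23b were Mir433 (distance 0.390) and Mir128-1 (distance 0.558). Mir7b (distance 0.243) and Mir376a (distance 0.262) were nearest to Mir27b, and Mir30b (distance 0.261) and Mir340 (distance 0.363) to Mir27a. Nearest to Mir24-1 were Mir6769b (distance 0.0633) and Mir345 (distance 0.0644), and nearest to Mir24-2 were mmu-mir-3535 (distance 0.147) and Mir3059 (distance 0.183). With only 2 libraries such a distance is mostly a likeness of level.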

How the data were processed

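For each library the authors deposited a headerless table of raw read counts per microRNA gene, with 3 columns of counts. The assembly was mm10 and the annotation GENCODE release M21, per the README notes. The aligner, counter and trimming are not given in the sources used here. From the values, the columns were read as counts without regard to strand, on the gene's strand and on the opposite strand, and the gene's strand was used. The 4 opening lines that name no gene were left out. In mouse 1 they held 32.1% unmapped, 34.6% multiply mapped and 6.11% unassigned of 7082096 reads, and in mouse 2 they held 27.3%, 37.2% and 5.63% of 6253481 reads.

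All 2202 gene identifiers matched the M21 annotation. CPM was computed over sense totals, log2 ratios with TMM library sizes (edgeR 4.0.16, factors 0.983 and 1.02) and intervals by the Clopper-Pearson method (scipy 1.17.1) at 95%. A 0 count was given a prior of 0.5 in ratios. A 2-fold difference was called over genes at 10 CPM or more on average. Intervals and floors cover counting error only, since they rest on the reads of 1 library a mouse. No molecular identifiers were named, and the intervals take each read as independent. The common biological coefficient of variation was 0.399, and the chi-square of 245 per degree of freedom showed no sign of 1 library deposited as 2. DESeq2 1.42.0 size factors were an alternative. Hairpin and mature sequences came from M21 and RefSeq. Named genes were the members, genes within 10 kb, genes sharing a 3p seed, Mir128 and the 2 nearest genes of each member. Marker genes named singly and the pairs listed beside the members were named after their values were seen. The members and lists were chosen with earlier results of these data known.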

Additional observations from a re-analysis of the deposited data

Results flagged for a closer look

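Reads on the strand opposite to Mir24-1 numbered 14 in mouse 1 and 11 in mouse 2, above the floor of 3 counts. They stand in a column that the levels above do not use. The same 14 and 11 reads are the sense counts of Mir3074-1, the microRNA gene annotated on that strand, or 7.25 CPM (mouse 1) and 5.90 CPM (mouse 2). Mir24-2 had 0 opposite-strand counts in both mice, as had Mir3074-2, and the other 4 members had none either. The 5p strand of Mir3074 is the same from both loci, so reads of it would have been given to no gene.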

How the results depend on the processing

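Leaving out a mouse leaves the value of the other, and gave log2 ratios of 1.12 to 1.14 for Mir23b over Mir23a, 3.31 to 3.33 for Mir27b over Mir27a, -0.86 to -0.72 for Mir24-1 over Mir24-2 and 1.16 to 1.28 for the chromosome 13 over the chromosome 8 cluster. For the Mir23 and Mir27 genes the counts without regard to strand are the same numbers, so they test nothing. A prior count of 1 gave 1.13, 3.31 and -0.78 for the 3 copy ratios. For Mir24-1 over Mir24-2 the counts without regard to strand gave no value, since both genes had 0 counts there. Scaled to all mapped reads, the share of the 6 genes was 1.25% in place of 3.08%. With the GC trend removed, 1 member was 2-fold apart in place of 2, and of 67 genes called, 29 were higher in mouse 1 and 38 in mouse 2, against 17 and 46 without it. Without a filter on low counts 302 of 722 genes were 2-fold apart, and at 100 CPM or more 36 of 207 were. Adding an exact binomial test left the count at 63. That test covers only counting error within 1 library a mouse, so it adds no support for a difference between the animals. Of the single-gene values, the Mir24-2 log2 ratio turned to -0.03 with total counts and to -0.12 with the GC trend removed. Each mouse alone gave -4.44 to -2.77 for the log2 ratio of Mir27b over Mir23b and -6.65 to -4.94 for that of Mir27a over Mir23a. No paired analysis was possible because the design holds a single group. Depth limits the Mir24 genes most, with 75 to 138 counts each.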

Other observations

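Genes whose mature strands recur in another hairpin were compared by level with the rest, over genes with RefSeq mature strands that matched by symbol and by the strands listed there, for Mir23b the 5p strand. Of 61 genes with some but not every strand found whole in another hairpin, the class of Mir24-1 and Mir24-2, 36 (59.0%) reached 10 CPM on average and 7 (11.5%) reached 1000 CPM. Mir24-2 stood below 22 of those 61 genes. The highest of them was Mir128-1 at 16730 CPM. Of 53 genes with every strand found elsewhere, 6 (11.3%) reached 10 CPM and 2 (3.77%) reached 1000 CPM, with Mir219a-2 the highest at 1961 CPM. Of 904 genes with no strand found elsewhere, 250 (27.7%) reached 10 CPM and 83 (9.18%) reached 1000 CPM. A shared strand was thus found both in genes with few counts and in genes with many. The share at 10 CPM or more was highest where some strands recurred and lowest where every strand did. The cause was not tested.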
